A study of Mus musculus with 9 samples.

Results

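The endocrine islet of the mouse pancreas makes its hormones in separate cell types: insulin and amylin in beta cells, glucagon in alpha cells, somatostatin in delta cells, ghrelin in epsilon cells and pancreatic polypeptide in PP cells. Hormone-producing cells arise in the embryonic pancreas and the islets continue to form after birth. Glis3 is a zinc finger transcription factor known to bind the insulin promoter. The 8 genes described here are Ins1 and Ins2, which encode the pair of mouse insulins, Gcg (glucagon), Sst (somatostatin), Ghrl (ghrelin), Ppy (pancreatic polypeptide), Pyy (peptide YY) and Iapp (amylin).

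RNA labelled as pancreas was compared between Glis3 mutant mice, homozygous for the Glis3zf allele, and wild-type (WT) mice, all of strain C57BL/6. At embryonic day 15.5 (E15.5) there were 4 mutant and 3 WT samples, each on 1 Affymetrix array. At postnatal day 3 (PND3) there was 1 pool of 2 mutant pups and 1 pool of 2 WT pups, hybridised together on 2 Agilent arrays with the dyes exchanged. Separate embryos are not mentioned in the labels for E15.5, and p-values therefore cover the spread among these arrays, some of which may be technical. The genes were chosen by name. They are 8 of the 28782 gene names on the PND3 arrays. At E15.5 Ins1, Ins2, Gcg, Sst and Ghrl were read from 1 probe set each, 5 of 45037 in the table, and Ppy, Pyy and Iapp were not read at that age. At PND3 all 12 probes that carry the 8 gene names were read, of 41174 probes.

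The PND3 probes are 60-base sequences. Those of the insulin genes are shown because the pair of genes is similar enough for a probe of one to resemble the other, and the run of 17 bases that the Ins1 probe shares with one Ins2 probe is in capitals.
Ins1 probe A_51_P312755: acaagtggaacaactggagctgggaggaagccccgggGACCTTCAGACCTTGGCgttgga
Ins2 probe A_52_P407060: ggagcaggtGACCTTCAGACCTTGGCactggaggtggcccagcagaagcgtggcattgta
Ins2 probe A_51_P389597: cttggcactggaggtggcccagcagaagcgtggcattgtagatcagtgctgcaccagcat
Laid over each other at that run, the Ins1 probe and Ins2 probe A_52_P407060 match at 25 of 32 bases. The Ins2 probes overlap each other by 40 identical bases. How far each probe, or the E15.5 probe sets, take up RNA of the other insulin gene was not tested. The probes of Ghrl are shown because they gave different results at PND3, and no base in them is in capitals.
Ghrl probe A_51_P464000: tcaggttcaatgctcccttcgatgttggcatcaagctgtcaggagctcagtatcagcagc
Ghrl probe A_52_P675556: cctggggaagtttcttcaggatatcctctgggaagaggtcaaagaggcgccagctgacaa

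Of the 8 genes, 7 had a promoter entry in RefSeq (build GRCm38.p6) and the other is Ins2. The 250 bases upstream of the start of Ins1, Gcg, Sst and Ghrl are shown because these genes were lower in the mutant samples that listed them at E15.5. Ghrl has 4 start sites in RefSeq, and the window with a match to the motif of Glis proteins is shown. Capitals mark matches, on either strand, to TAAT, the core of the A-box bound by homeodomain factors such as Pdx1, to CANNTG, the E-box bound by basic helix-loop-helix factors such as Neurod1, to TGACGTCA, the cyclic AMP response element, and to TGGGGGG, the core of the G-rich motif bound by Glis proteins.
Ins1, chr19:52264047-52264296, plus strand: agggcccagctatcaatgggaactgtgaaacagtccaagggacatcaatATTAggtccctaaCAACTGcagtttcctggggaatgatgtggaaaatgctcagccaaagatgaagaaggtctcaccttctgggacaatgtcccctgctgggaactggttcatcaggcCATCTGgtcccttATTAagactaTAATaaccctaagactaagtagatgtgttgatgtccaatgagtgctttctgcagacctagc
Gcg, chr2:62483654-62483903, minus strand: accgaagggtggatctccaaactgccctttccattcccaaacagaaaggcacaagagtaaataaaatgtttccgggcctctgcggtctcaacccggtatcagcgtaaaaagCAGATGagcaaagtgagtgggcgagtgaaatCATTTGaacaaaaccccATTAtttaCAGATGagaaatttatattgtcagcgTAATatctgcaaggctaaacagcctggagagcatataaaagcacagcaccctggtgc
Sst, chr16:23890845-23891094, minus strand: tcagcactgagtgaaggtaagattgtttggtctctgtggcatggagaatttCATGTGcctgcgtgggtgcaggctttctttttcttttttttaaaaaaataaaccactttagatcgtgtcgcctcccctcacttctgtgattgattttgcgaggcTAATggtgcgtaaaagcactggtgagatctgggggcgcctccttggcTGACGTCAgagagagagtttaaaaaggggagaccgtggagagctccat
Ghrl, chr6:113717693-113717942, minus strand: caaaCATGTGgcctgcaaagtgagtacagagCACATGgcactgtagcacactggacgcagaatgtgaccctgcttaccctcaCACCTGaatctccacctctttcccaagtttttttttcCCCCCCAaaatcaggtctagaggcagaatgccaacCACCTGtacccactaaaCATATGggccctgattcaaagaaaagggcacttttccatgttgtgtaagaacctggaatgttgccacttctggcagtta
The Ins1 window held 3 A-box cores and 2 E-boxes, the Gcg window 2 and 3, and the Sst window 1 of each, while this Ghrl window held 5 E-boxes and no A-box core. Such matches are common, since 54.9% of 32851 RefSeq promoter windows of this length hold an A-box core and 66.2% an E-box. The cyclic AMP response element is held by 1.5% of windows and, of those shown, was found in that of Sst. The G-rich core, held by 7.7% of all windows, was found in 1 of the 11 windows of the 7 genes, that of Ghrl, as CCCCCCA starting at position -131 from the start site. The matches describe the letters and were not tested as sites.

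At E15.5 the insulin genes were lower in mutant pancreas by a wide margin, Ins1 by 7.91-fold and Ins2 by 22.5-fold. Gcg was 2.09-fold lower. Ins2, Sst and Ghrl were unlisted on some mutant arrays and lower on those that listed them. In every one of the 5 probe sets, each listed mutant value lay below each WT value, as was so for 6% of the 25334 probe sets of the fit that accepts 1 or more arrays of each genotype. The Ins2 difference, which rests on 2 of 4 mutant arrays, passed the test across all probe sets when empty cells were dropped (limma, adjusted p = 0.0338). It did not when empty cells were set to the lowest value of their array (limma, adjusted p = 0.191). Ins1, Gcg and Ghrl did not pass in the fits from which they were read. In whole-tissue RNA, fewer cells of a type and less RNA per cell cannot be told apart.

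Values at E15.5 are the deposited intensities, on a linear scale in arbitrary units. Ins1 had 157, 227, 265 and 258 in mutant samples 2 to 5, against 4960, 1723 and 1317 in WT samples 1 to 3. The groups were apart by 4.97-fold between the lowest WT and the highest mutant value, and WT sample 1 stood well above the other WT samples. The means were 226.7 ± 49.2 in mutant and 2666 ± 1996 in WT samples (SD, n = 4 and 3). In the limma fit on quantile-normalized log2(value + 16), Ins1 averaged 8.02 ± 0.38 in mutant and 11.01 ± 1.1 in WT samples. The difference was -2.98 with a standard error of 0.45 and a 95% interval of -4.01 to -1.96. The p was 0.000102 before and 0.311 after Benjamini-Hochberg adjustment over the 12164 probe sets tested. Ins1 passed the level filter (8.92, on the mean of all arrays) through its WT level, since its mutant mean lay under it. With no filter, among 20273 probe sets, its difference was again -2.98, with an adjusted p of 0.2 in limma, and was the largest decrease. An exact two-sided permutation test of the 7 arrays gave p = 0.0571, the smallest that 4 against 3 arrays allow.

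Ins2 was listed at 476 and 294 in mutant samples 3 and 5, and was empty in mutant samples 2 and 4, against 15012.5, 7947 and 10602 in WT samples 1 to 3. The lowest WT value was 16.7-fold above the highest listed mutant value. Because of the empty cells Ins2 was outside the fit of probe sets listed on all arrays. It was tested in a fit that drops empty cells and keeps probe sets listed on 2 or more arrays of each genotype, 23592 in all, so its value rests on 2 mutant and 3 WT arrays. There it averaged 8.81 ± 0.41 in mutant and 13.3 ± 0.53 in WT samples on the log2 scale. The difference was -4.49 with a standard error of 0.32 and a 95% interval of -5.24 to -3.74, the largest decrease and the smallest p of that fit (limma, adjusted p = 0.0338). It was the 1 probe set called of all tested (0.00424%). The exact permutation p was 0.2, the smallest that 2 against 3 arrays allow. The adjusted p was 0.191 when empty cells were set to the lowest value of their array, where the difference was -5.77. Without WT sample 1 it was 0.09, and without WT sample 2 it was 0.0507. With mutant sample 3 or 5 left out, too few arrays listed Ins2 for the fit.

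Probe sets as bright as Ins2 on the WT arrays were rarely empty on a mutant array. Of 1040 probe sets whose lowest WT value was at or above that of Ins2 (7947), 1039 were listed on all 4 mutant arrays, and Ins2 was the other one. These probe sets were chosen by their WT level alone, so the count is not support separate from the lower mutant values of Ins2. Its listed mutant values, 476 and 294, lay near the median listed intensities of the mutant arrays, 399 to 468. Those arrays listed 52.6% to 55% of all probe sets. This count was chosen after the values had been seen, and no source used here gives the reason for empty cells.

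Gcg, the precursor of glucagon, had 6084, 8887, 4149 and 6027 in mutant samples 2 to 5, against 20013, 12901.5 and 11154 in WT samples 1 to 3. All mutant samples lay below all WT samples, with a gap of 1.26-fold between the nearest values before normalization, those of mutant sample 3 and WT sample 3. The median listed intensities of these arrays were 441 and 517. After normalization the groups did not overlap either. The log2 level averaged 12.65 ± 0.41 in mutant and 13.72 ± 0.51 in WT samples. The difference of -1.06 had a standard error of 0.27 and a 95% interval of -1.67 to -0.45, with an adjusted p of 1 in limma and an exact permutation p of 0.0571, again the smallest possible. With no filter it was the 50th largest decrease.

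Ins1 and Gcg were the hormone probe sets listed on all 7 arrays. None of the 12164 probe sets passed an adjusted p of 0.05 in that limma fit (0%), and 274 had an unadjusted p under 0.05 (2.25%). All mutant arrays lay below all WT arrays in 218 probe sets (1.79%), Ins1 and Gcg among them, and 20 were 2-fold or more lower in mutant samples (0.164%), which again included both. The median difference over all 12164 was -0.005. The median listed intensity per array before normalization was 399 to 468 in mutant and 499 to 567 in WT samples, and its part in the unnormalized values was not tested.

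**Figure D1:**
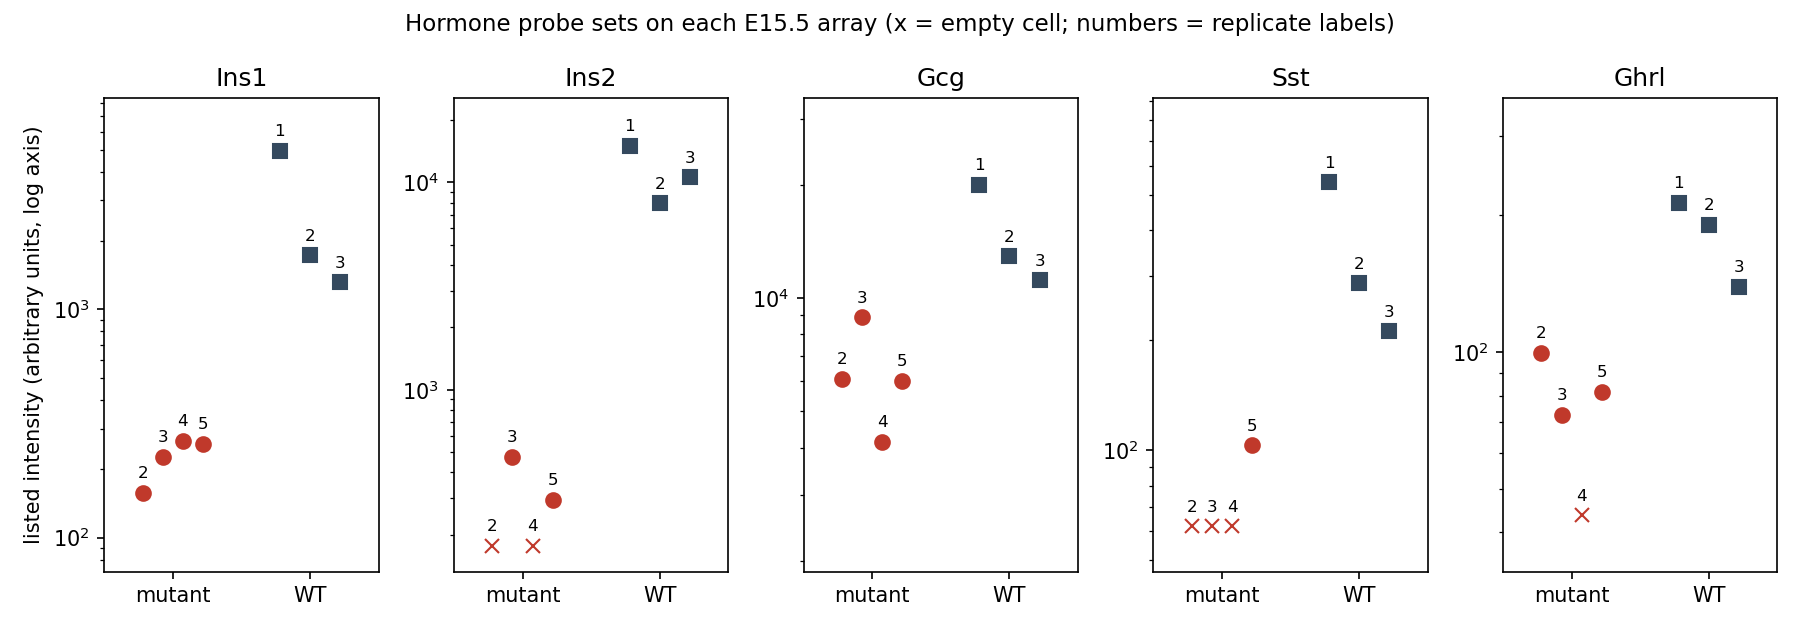
Listed intensity (log axis, arbitrary units) of 5 hormone probe sets on each E15.5 array, mutant samples as red circles and WT samples as dark squares, numbered by replicate; a cross marks an empty cell and has no level. In each panel every listed mutant value lies below every WT value, and WT sample 1 is the highest.

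Sst, the precursor of somatostatin, was listed at 103 in mutant sample 5 and empty in mutant samples 2, 3 and 4, against 540, 286 and 211 in WT samples 1 to 3. The single mutant value lay below all WT values by at least 2.05-fold. Of 15645 probe sets with a lowest WT value at or above that of Sst, 5 were listed on 1 mutant array or none (0.032%), Sst among them. As for Ins2, this set was chosen by WT level alone and is not separate support. A fit that accepts a single array per genotype, added after the data were seen, gave a log2 difference of -1.14, which rests on 1 mutant array and is given with no test.

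Ghrl, the precursor of ghrelin, was listed at 99.5, 72.8 and 81.7 in mutant samples 2, 3 and 5 and empty in mutant sample 4, against 214, 191 and 139 in WT samples 1 to 3. The groups did not overlap, with a gap of 1.4-fold before normalization. In the fit with empty cells dropped, which used 3 arrays of each genotype, the difference was -0.68 with a standard error of 0.2 and a 95% interval of -1.14 to -0.23 (limma, adjusted p = 1), and the exact permutation p was 0.1, the smallest possible. In that fit 922 of 23592 probe sets had all mutant arrays below all WT arrays (3.91%), and the fit that also holds Sst is the one with 6%. Of 18054 probe sets with a lowest WT value at or above that of Ghrl, 1.12% were missing from 1 or more mutant arrays. This set too was chosen by WT level alone and is not separate support.

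**Figure D2:**
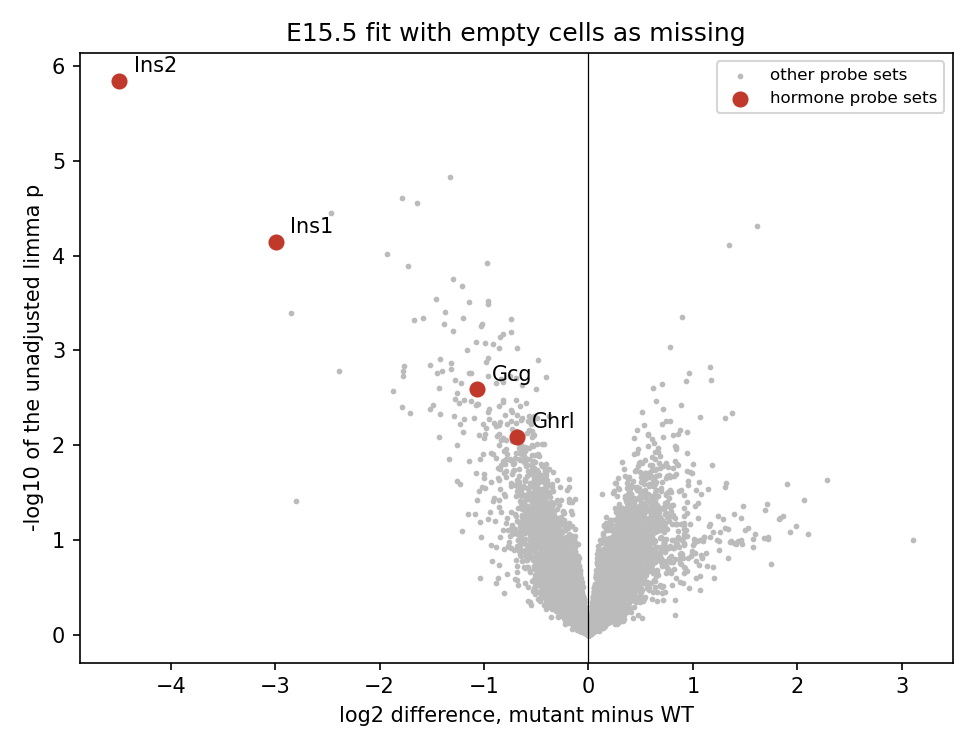
Log2 difference (mutant minus WT) against -log10 of the unadjusted limma p for the 23592 probe sets of the E15.5 fit with empty cells as missing, hormone probe sets in red. Ins2 is farthest left and highest, Ins1 is next in decrease, and Gcg and Ghrl lie among other probe sets.

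WT sample 1 was the highest WT sample in all 5 probe sets, at 3.26 times the mean of the other WT samples for Ins1, 1.62 for Ins2, 1.66 for Gcg, 2.17 for Sst and 1.29 for Ghrl. Without that array the Ins1 difference was -2.41, with an adjusted p of 0.0959 in the limma fit with empty cells dropped. Without it Ins1 fell under the level filter of the fit on probe sets listed on all arrays and has no value there. A table of gene names for the other E15.5 probe sets was not used here, and the part of other cell types was not tested at that age.

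**Figure D3:**
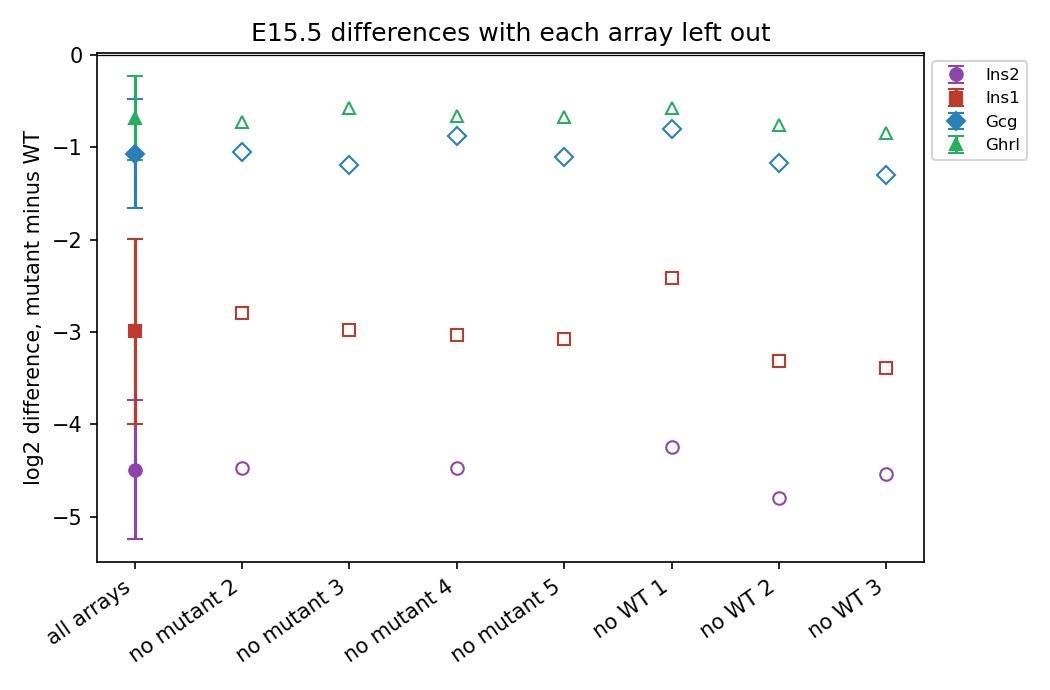
Log2 difference (mutant minus WT) of 4 hormone probe sets with all arrays (filled, bars are 95% intervals) and with each array left out (open), with empty cells as missing. All values are below 0, and leaving out WT sample 1 brings Ins1 to -2.41; Ins2 has no value without mutant sample 3 or 5.

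The sizes of the decreases were set against each other within arrays, in comparisons chosen after the values had been seen. The Ins1 level minus the Gcg level was -4.63 ± 0.54 in mutant and -2.71 ± 0.6 in WT samples on the log2 scale (SD, n = 4 and 3), a difference of -1.93 between genotypes. The exact permutation p was 0.0571, the smallest possible, and 0.15 after adjustment over 3 pairs. Against Ghrl, on 3 arrays of each genotype, the Ins1 difference was 1.19 ± 0.55 in mutant and 3.55 ± 0.83 in WT samples, and the exact permutation p was 0.1, the smallest possible there. Gcg minus Ghrl was 6.05 ± 0.4 in mutant and 6.26 ± 0.24 in WT samples (exact permutation p = 0.4). The listed mutant Ghrl values, 72.8 to 99.5, lay near the lowest listed values of their arrays, 50.1 to 54.7, and mutant sample 4 was empty. A larger decrease of Ghrl could hardly be seen, so the pairs with Ghrl do not settle whether the decreases differ in size. Levels of different probe sets do not measure relative amounts, and the change between genotypes alone is compared here.

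The probe sets whose levels over the 7 arrays were most like the mean standardized level of Ins1 and Gcg were 1447669_s_at (Pearson's r = 0.971) and 1448312_at (r = 0.97), of 12162 compared. Probe set 1447669_s_at averaged 8.79 in mutant and 10.02 in WT samples on the log2 scale, a difference of -1.23. Probe set 1448312_at averaged 9.45 in mutant and 10.64 in WT samples, a difference of -1.2. The most unlike were 1420088_at, 0.29 higher in mutant samples, and 1428455_at, 0.76 higher, both with r = -0.952. None of these 4 passed the limma test (adjusted p = 1 for each), and the arrays share their genotype groups, so r describes the pattern across both.

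At PND3 the hormone signals were low in both pools and none of the measured hormone genes was 2-fold apart. Ghrl was the one that stood above the others, 0.48 log2 units higher in the mutant pool. Ins2, Sst, Pyy and Iapp had mean log2 ratios of -0.03, -0.02, -0.06 and -0.06 on their brightest probe, and Ins1, Gcg and Ppy did not meet the background criterion (well above background on both arrays in at least 1 pool). With 1 pool per genotype on a technical pair of arrays, no p-value is given. Although labelled as pancreas, both pools had signals above 1000 for 11 of 12 kidney markers and for 0 of 14 markers of pancreatic acinar cells. The values may therefore say little about hormones in pancreas, and the part of this in them was not tested.

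The Glis3 probe had a signal of 3.88 and 3.39 in the mutant pool, where neither array found it well above background, against 22.1 and 21.5 in the WT pool, where it was well above background on both. No source used here says whether the probe lies in the altered part of the gene. The hormone values below are log2 ratios after background correction with an offset, which draws dim probes toward 0, and scanner signals are given first.

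Ghrl probe A_51_P464000 had signals of 353 and 305 in the mutant pool, against 225 and 205 in the WT pool, on the arrays with mutant RNA in Cy3 and in Cy5. The mutant pool was higher on both arrays, by log2 ratios of 0.49 and 0.46. Each ratio came from 1 spot. Among 20919 genes, 179 had a higher mean ratio than Ghrl, with the offset drawing dimmer genes closer to 0. The other Ghrl probe missed the background criterion and had log2 ratios of -0.02 and 0.06. At E15.5 the same gene was lower in mutant samples, but age, array platform and pooling all differ between the ages, and the difference was not tested. Both PND3 pools also showed strong kidney markers and weak pancreatic ones, as given below, so the tissue read may differ as well.

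Ins2 had 2 probes well above background in both pools. The 10 spots of A_51_P389597 gave mean signals of 94.1 and 84 in the mutant pool, against 99.2 and 78.7 in the WT pool. The log2 ratios were -0.05 and 0.04, of opposite sign on the 2 arrays, with a standard deviation over spots of 0.0686 and 0.0485. Probe A_52_P407060 gave log2 ratios of -0.14 and 0.07, again of opposite sign. The Ins1 probe had signals of 10.6 and 14.1 in the mutant pool and 8.89 and 12.5 in the WT pool, and was well above background on 1 array in the WT pool and on none in the mutant pool. Iapp, whose product is released together with insulin, had signals of 57.5 and 34.8 in the mutant pool and 55.7 and 38.6 in the WT pool, with a log2 ratio of -0.06 on both arrays.

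Sst, on 10 spots, had signals of 28 and 23 in the mutant pool and 28 and 23.5 in the WT pool, with log2 ratios of -0.01 and -0.03. In the mutant pool 7 and 8 of the 10 spots were well above background, and in the WT pool all 10 were on both arrays. Pyy, a peptide of the pancreatic polypeptide family, gave ratios of -0.06 and -0.07 with probe A_51_P241733 and of 0.18 and 0.08 with probe A_52_P366462, so its probes disagreed in direction. The brighter Pyy probe had signals of 185 and 156 in the mutant pool, against 194 and 165 in the WT pool. Gcg had 2 probes and Ppy 1, all below the background criterion in both pools.

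Of the 5 hormone genes measured, 0 were 2-fold apart on both arrays, beside 40 of 20919 genes (0.191%). Of these 40, 33 were lower in the mutant pool (0.158%) and 7 were higher (0.0335%). The offset keeps dim probes such as those of Sst and Iapp from reaching 2-fold easily. The Glis3 probe, with scanner log2 ratios of -2.51 and -2.66, came out at -0.32 and was not called. The hormone count can therefore not be weighed against the rate over all genes. With an offset of 0, or from the scanner's processed signals, the hormone count was also 0. Ghrl was higher on both arrays, as were 30.7% of all genes, and Sst, Pyy and Iapp were lower on both, as were 37.7%. With so few genes, these shares are not read as a result about the hormones.

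**Figure D4:**
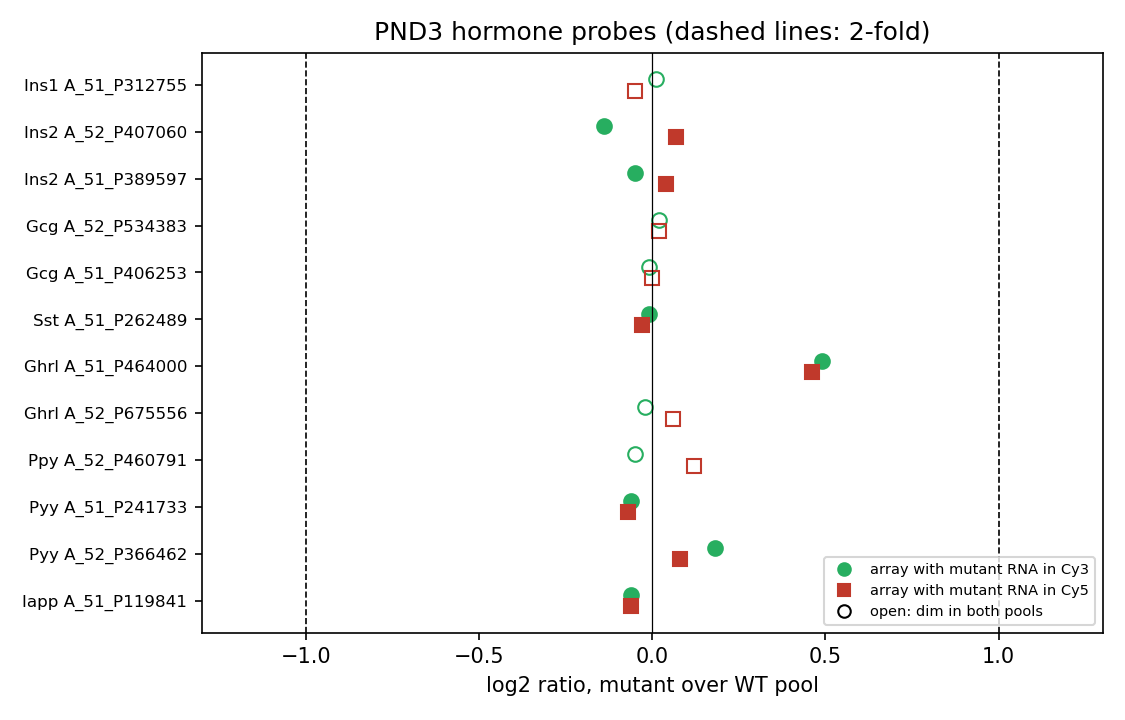
Log2 ratio (mutant over WT pool) of the 12 hormone probes on each PND3 array, green circles with mutant RNA in Cy3 and red squares with mutant RNA in Cy5; open symbols are probes that missed the background criterion, and dashed lines mark 2-fold. All lie within the dashed lines, and Ghrl probe A_51_P464000 is farthest from 0.

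The low hormone signals stood beside signals of other tissues. All 8 hormone genes had a mean scanner signal of at most 329 in the mutant and 215 in the WT pool. Their medians were 35.8 and 36.5. The medians over the 20919 genes that met the background criterion, which Ins1, Gcg and Ppy did not, were 606 and 609. Over all probes the medians per array were 129 and 115 in the mutant and 129 and 113 in the WT pool. Of 14 markers of pancreatic acinar cells, which make digestive enzymes, 0 had a signal above 1000 in both pools, and their summed signal was 1890 in the mutant and 1960 in the WT pool. Of 12 kidney markers 11 were above 1000 in both pools, and their summed signal was 252000 in the mutant and 246000 in the WT pool. Lrp2, which encodes megalin of the kidney proximal tubule, had a signal of 37800 in the mutant and 41900 in the WT pool. Ctrb1, a digestive protease precursor, had 693 in the mutant and 640 in the WT pool. The median log2 ratio of the kidney list was 0, with 4 genes higher and 3 lower on both arrays. Aqp2, a water channel of the collecting duct, had a ratio of 0.49 and Nphs1, of podocytes, had 0.2, while Slc12a1, a salt transporter of the thick limb, had -0.2 and Lrp2 had -0.17. Both pools showed strong kidney markers and weak pancreatic ones, against their label, and the part of this in the hormone values was not tested.

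Other genes of the hormone pathway were read from lists. Of 14 transcription factors of islet cells 7 were measured, with a median log2 ratio of 0.04 and 0 called, beside a median of -0.01 over all genes. Glis3 is on this list and was not called, at -0.32 with the offset, so counts of 0 called say little about dim genes. Nkx6-1, of beta cells, had a ratio of -0.08. Of 15 genes for hormone processing and granules 10 were measured, with a median of -0.06 and 0 called. Pam, which amidates peptide hormones, had -0.68, Pcsk2, a prohormone convertase, had -0.38, and Cpe, a carboxypeptidase that trims prohormones, had 0.34. Of 20 genes on a list of hormone receptors, some of them for other hormones and some for receptor partners, 17 were measured, with a median of -0.03 and 0 called. Igf1r, the insulin-like growth factor receptor, had -0.32, Gcgr, the glucagon receptor, had -0.24, Npy2r, a receptor for Pyy, had 0.2, and Insr, the insulin receptor, had -0.18. Of 15 stomach and gut genes 10 were measured, with a median of 0.04 and 0 called. Lgals4 had a ratio of 0.6, Tff2 had -0.51, Nts (neurotensin) had 0.39 and Sct (secretin) had 0.3.

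**Figure D5:**
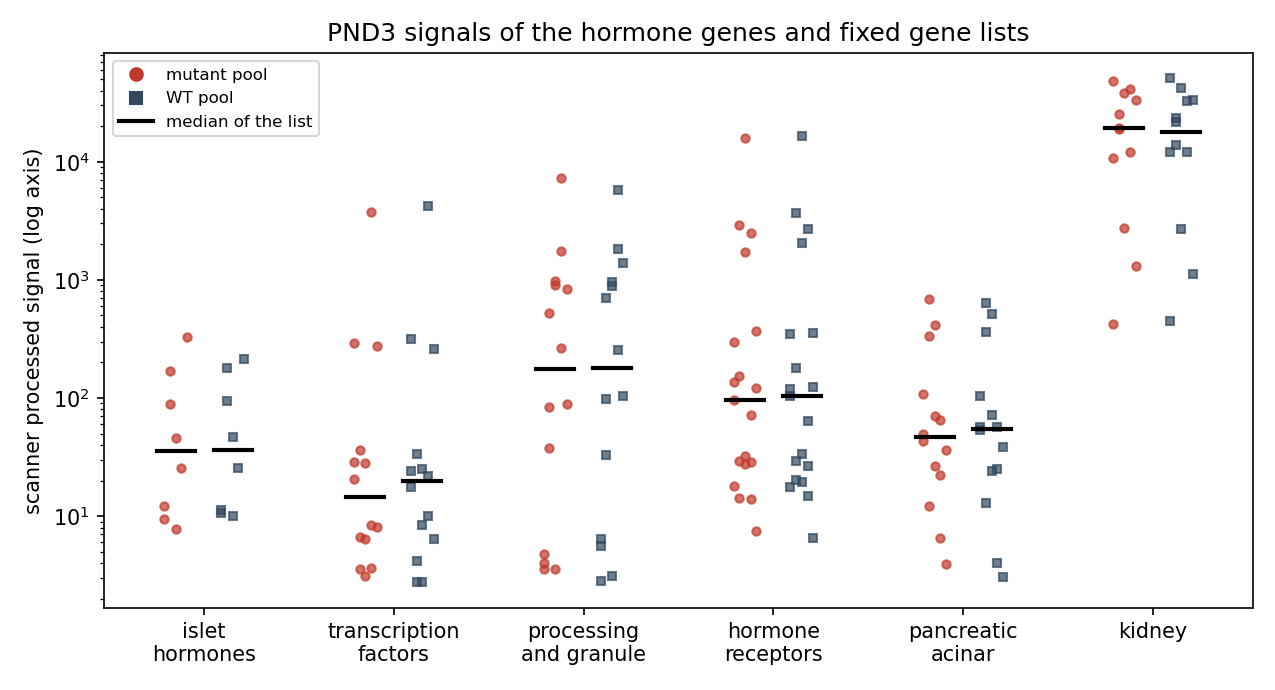
Mean scanner signal (log axis) of each hormone gene and of each gene of 5 lists (stomach and gut genes are not drawn) in the mutant pool (red circles) and the WT pool (dark squares), with list medians as bars. The kidney list has medians of 19200 in the mutant and 17800 in the WT pool, the hormones 35.8 and 36.5, the acinar list 46.7 and 54.9, and the transcription factors the lowest, 14.6 and 19.8.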

How the data were processed

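The E15.5 table deposited by the authors holds intensities on a linear scale; no source used here gives how it was made or why cells are empty. Per the file headers, intensities of spots and their local background at PND3 came from Agilent Feature Extraction 9.1.3.1 (8.1 per the submitters' processing notes). That software also gives a log10 ratio of Cy5 over Cy3, per the file headers. The deposited PND3 value table holds log2 ratios, which matched the scanner ratio (r = 0.9996 and 0.9997).

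With R 4.3.3 and limma 3.58.1, the E15.5 values (probe sets with no empty cell) were transformed as log2(value + 16) and then underwent quantile normalization. They were filtered at the 40th percentile of mean level and tested (eBayes with a trend, Benjamini-Hochberg adjustment). The added pseudocount understates folds of dim probe sets. Because the intensities of Ins2, Sst and Ghrl had empty cells, they were read from fits that drop those cells. PND3 used normexp background correction (offset 50) and loess, with the brightest probe standing for a gene. Both procedures were tested on simulated data. The genes, the lists and the rules for naming were chosen with earlier results of these data known. Named genes were all 8 hormone genes, Glis3, up to 4 genes of each list with the largest ratios, and the 4 E15.5 probe sets most and least like Ins1 and Gcg. Some genes that this rule names are not reported here.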

Additional observations from a re-analysis of the deposited data

How the results depend on the processing

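At E15.5 the count of hormone probe sets past an adjusted limma p of 0.05 was 0 on probe sets listed on all arrays, and 0 under the other pseudocounts, filter, variance models and median centring. It was 1 without normalization between arrays (Ins1, -3.24, adjusted p = 0.0106, beside 0.0411% of all probe sets), 1 with empty cells as missing, also with 1 array per genotype accepted or with median centring, each time the 1 probe set called of all, and 2 with empty cells as missing and no normalization (0.0297%). With the replicate number as a block it was 1 (Ins1, -2.58, adjusted p = 0.018, beside 0.0329% of all), although the labels do not say that equal numbers share a litter, and the deviations of samples sharing number 2 or 3 correlated at 0.06 and 0.54. Leaving out each array gave 0 to 1 (Ins1 without WT sample 3, -3.33, adjusted p = 0.0427, beside 0.218% of all), and 0 to 2 with empty cells as missing (2 without WT sample 3, beside 0.268%). Over 27 settings Ins1 ranged from -3.39 to -2.41, with adjusted p from 0.0106 to 1, and over 10 settings Ins2 ranged from -5.77 to -4.24, with adjusted p from 0.000578 to 0.191. At PND3 the hormone count was 0 under all 11 alternatives, and Ghrl ranged from 0.39 to 0.61. Median centring gave all measured genes a median of -0.11 and turned Sst to 0.09 and Iapp to 0.01. The count over all genes was 40, and it was 176 from the scanner's processed signals or the deposited value table, 100 with offset 0 and 70 with offset 16. The settings with empty cells as missing other than the first were chosen after seeing the data. Few arrays at E15.5, and 1 pool per genotype with dim hormone probes at PND3, limit what can be measured.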
